A study of Mus musculus with 25 samples.

Results

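Collapsin response mediator proteins (CRMPs) and stathmins are cytosolic proteins that bind tubulin and act on microtubules in growing axons and dendrites. Their 9 genes, the 5 CRMP genes Crmp1, Dpysl2, Dpysl3, Dpysl4 and Dpysl5 and the 4 stathmin genes Stmn1, Stmn2, Stmn3 and Stmn4, were read from RNA-seq of sorted neuronal nuclei of the mouse hippocampus. They are 9 of the 24411 genes in each table, and all 9 were found in all 3 tables. The genes were chosen by family after results of these experiments were known, so the values between groups, and every adjusted p given with them, are a description of the genes chosen and no independent evidence that they differ.

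The study asked how the ferritin light chain gene Ftl1 acts on neurons in aging. It compared hippocampal nuclei of male C57BL/6 mice in 3 experiments with 25 libraries, and all nuclei were sorted with the neuronal nuclear antigen NeuN. The aging experiment held 3 libraries of young wild-type mice (3 months) and 2 of aged wild-type mice (18 months). In the overexpression experiment, young mice (3 months) received a lentivirus with Ftl1 behind the neuronal synapsin promoter (7 libraries, labelled Ftl1 OE) or a GFP control virus (5 libraries). In the knockdown experiment, aged mice (18 months) received a lentivirus with a short hairpin RNA, directed at Ftl1 in the 4 libraries labelled Ftl1 KD and at luciferase in the 4 control libraries. Mice of both virus experiments had thus been injected, controls included, and the sources used here do not say how many nuclei of a library carried a virus.

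CRMPs resemble the pyrimidine-degrading enzyme dihydropyrimidinase but work as scaffolds. They carry tubulin dimers to growing microtubule ends, link kinesin to cargo and relay the repulsive guidance cue semaphorin 3A, and phosphorylation by Cdk5 and Gsk3 releases them from tubulin. Stathmins hold free tubulin dimers and destabilize microtubule ends until kinases phosphorylate them. Stmn1 is soluble, whereas Stmn2 (also called SCG10), Stmn3 (SCLIP) and Stmn4 (RB3) are anchored to membranes by palmitoylation. In the hippocampus, several of these genes, Dpysl3, Dpysl5 and Stmn1 among them, are known as marks of newborn granule neurons.

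RefSeq promoter sequences (build GRCm38.p6, which is mm10) are shown for 3 of the 9 genes, Dpysl5, Crmp1 and Stmn3. Dpysl5 had the highest fold change of the 9 in the knockdown experiment, Crmp1 a lower one, and Stmn3 the lowest among the genes tested. The 3 genes were not picked by fold change, and a link between promoter sequence and fold change was not tested. The sequences are the bases before the transcription start, 5′ to 3′ on the strand of the gene, and capitals mark matches to the GC box GGGCGG, the CCAAT box or the TATA box TATAAA on either strand. The sequence of Dpysl5 lies at chr5:30711314-30711563 (plus strand) and that of Stmn3 at chr2:181314501-181314750 (minus strand). That of Crmp1, at chr5:37241808-37241939 (plus strand), stops before the first annotated exon.
Dpysl5: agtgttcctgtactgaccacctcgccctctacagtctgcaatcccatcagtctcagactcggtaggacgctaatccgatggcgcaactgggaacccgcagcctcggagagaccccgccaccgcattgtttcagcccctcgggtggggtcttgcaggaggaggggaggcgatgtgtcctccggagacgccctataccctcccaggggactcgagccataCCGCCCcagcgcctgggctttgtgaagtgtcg
Crmp1: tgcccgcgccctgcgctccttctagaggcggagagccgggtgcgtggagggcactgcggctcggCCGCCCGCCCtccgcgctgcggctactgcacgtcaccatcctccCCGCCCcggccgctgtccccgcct
Stmn3: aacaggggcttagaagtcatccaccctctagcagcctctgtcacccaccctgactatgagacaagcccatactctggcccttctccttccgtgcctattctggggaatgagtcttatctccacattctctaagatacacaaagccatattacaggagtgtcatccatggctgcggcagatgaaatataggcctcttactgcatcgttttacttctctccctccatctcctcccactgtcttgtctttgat

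The GC box is the site of Sp1-type factors, and within 250 bases before the start it was found 1 time for Dpysl5, 5 times for the upstream start of Crmp1 (overlapping matches counted), 2 times for the downstream start of Crmp1, and not for Stmn3. Of all 32851 promoter windows of this length, 32.7% held it. None of these windows held a CCAAT box or a TATA box, which 33.8% and 12.4% of all windows held. An E-box (CANNTG), found in 66.2% of all windows, was found 1 time for Dpysl5, for Stmn3 and for the downstream start of Crmp1. The share of G and C was 62.8% for Dpysl5 and 48.8% for Stmn3, with a median of 52.4% over all windows. For Crmp1 it was 75.6% at the upstream and 59.6% at the downstream start. The 250 bases held 17 CpG sites for Dpysl5 and 3 for Stmn3, with a median of 6. For Crmp1 they held 30 at the upstream and 16 at the downstream start. For the upstream start of Crmp1 these values cover all 250 bases, of which the first 132 are printed. Its GC boxes at -68 and -63 lie after the printed bases, within the annotated gene.

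The depth of a library ran from 7969282 to 9537872 reads for aging, from 9943996 to 17034325 for overexpression and from 48902 to 358560 for knockdown. Knockdown controls had 68092 to 358560 reads (median 211019) and the libraries labelled Ftl1 KD 48902 to 97104 (median 78358). In the knockdown libraries a member was therefore seen with 3 to 230 reads in a library, against 188 to 5677 in the aging and 70 to 32609 in the overexpression experiment. The ribosomal RNA precursor Rn45s took 31.9% to 55.3% of the reads of the knockdown control libraries and 30.3% to 34.5% of the libraries labelled Ftl1 KD. Control libraries 3 and 5 of the overexpression experiment stood apart from the other controls in several of the genes. The fold changes of the 9 genes and the levels of Stmn1 and Stmn3 in this experiment are given with and without them. Leaving them out was an alternative chosen after seeing the data.

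The targeted gene, Ftl1, was examined first in every library. Its normalized counts in the knockdown experiment were 49.1, 45.6, 56.2 and 24.2 in control libraries 1, 2, 3 and 5, and the libraries labelled Ftl1 KD had 117, 106, 109 and 139.6, so that every library labelled as a knockdown was above every control. The exact two-sided permutation p of this difference was 0.0286, the smallest that 4 against 4 libraries allow, and the direction is opposite to the label. In the overexpression experiment the control libraries had between 4580 and 28310 normalized counts (median 7415) and the libraries labelled Ftl1 OE between 4737 and 7663 (median 5171), with an exact permutation p of 0.0568. In neither virus experiment did the Ftl1 transcript differ in the direction of the label, and the sources used here do not say whether transcripts of the virus were counted as Ftl1. The study reported western blots of hippocampal FTL1 protein that differed in the direction of the label in both models. Those blots measured protein of the hippocampus and not RNA of sorted nuclei. In the aging experiment Ftl1 was at 1685, 1925 and 2141 in young and at 4247 and 4272 in aged libraries (exact permutation p = 0.1, the smallest possible).

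All 9 are protein-coding genes of GENCODE M21 (GRCm38, mm10). Crmp1 lies on chromosome 5 from 37241940 to 37292133 and Dpysl5 on the same chromosome from 30711564 to 30799375. Dpysl2 (chromosome 14, 66802864 to 66868688) and Stmn4 (chromosome 14, 66344296 to 66361680) also share a chromosome. Dpysl3 lies on chromosome 18 (43320984 to 43438286), Dpysl4 on chromosome 7 (139086001 to 139102704), Stmn1 on chromosome 4 (134468320 to 134473843), Stmn2 on chromosome 3 (8509360 to 8561606) and Stmn3 on chromosome 2 (181306459 to 181314500). The genes span from 5.52 kb (Stmn1) to 117 kb (Dpysl3), with merged exons between 1136 bases (Stmn3) and 7376 bases (Dpysl5).

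Among the 9 genes, Stmn3 had the highest level per length in all 6 groups. Levels between genes were compared in RPKM (reads divided by the length of the merged exons and by the library's total without Rn45s). Stmn3 was at 377 ± 79.2 RPKM (SD, n = 3) in young and 440.3 ± 43.6 (n = 2) in aged libraries, at 1457 ± 660.5 (n = 5) in overexpression controls (996 ± 187 without controls 3 and 5, n = 3) and at 975 ± 197 (n = 4) in knockdown controls. Its lowest library was above the highest library of every other member in each of the 6 groups.

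Below Stmn3 the order of levels differed between the experiments. In young libraries Dpysl2, the CRMP2 gene and the most abundant CRMP, came next with 117 ± 16.6 RPKM (n = 3), then Stmn1 with 58.9 ± 7.48, Stmn4 with 46.6 ± 17.2 and Crmp1 with 34.2 ± 6.02. Stmn1 overlapped Stmn4 between libraries, and Stmn4 overlapped Crmp1. Stmn2 followed with 22.6 ± 5.79, then Dpysl4 with 10.5 ± 2.63, Dpysl3 with 7.20 ± 0.983 and Dpysl5 with 3.93 ± 1.16. Dpysl4 and Dpysl3 overlapped, whereas every library had less Dpysl5 than the lowest Dpysl3 library. In the overexpression controls Stmn1, at 249.8 ± 113 RPKM (n = 5; 188 ± 18.0 without controls 3 and 5), was the second, and Dpysl3 (3.28 ± 1.14) and Dpysl5 (1.69 ± 0.801) were again the lowest, with overlapping ranges.

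**Figure D1:**
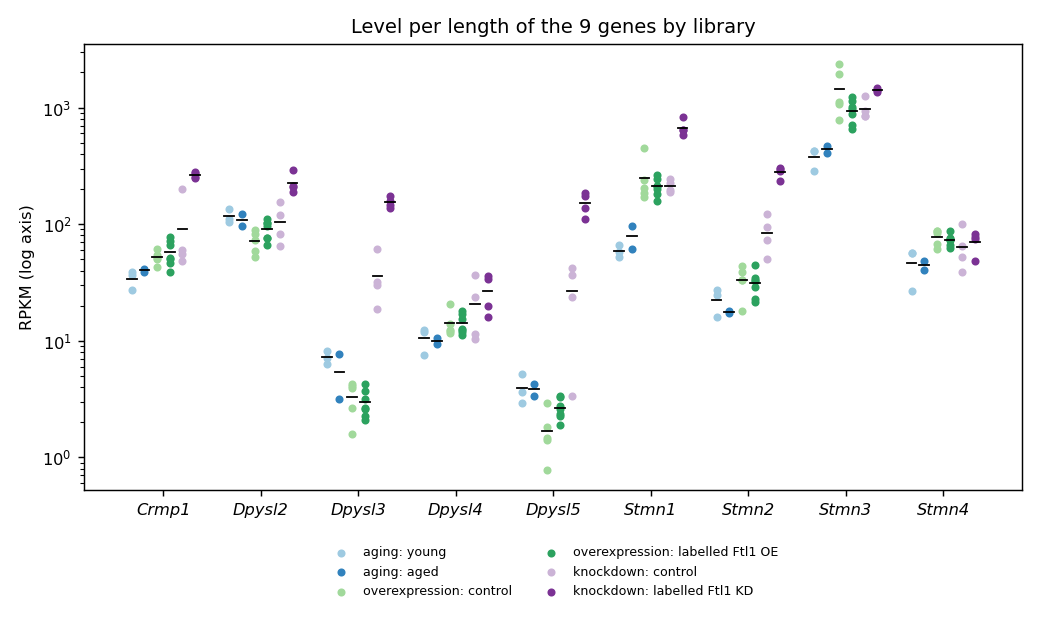
Level per length of the 9 genes (RPKM, log axis), with 1 point per library and a bar at the mean of each of the 6 groups. Stmn3 is the highest in every group, and Dpysl3 and Dpysl5 lie between 0.778 and 8.24 RPKM in all aging and overexpression libraries but from 111 to 184 where the label is Ftl1 KD.

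The knockdown libraries stood at other levels. Dpysl3 was at 35.6 ± 18.2 RPKM (n = 4) in their controls and at 154 ± 15.7 (n = 4) in the libraries labelled Ftl1 KD, and Dpysl5 at 26.5 ± 17.3 and 151.7 ± 34.1. The tables were normalized separately and the knockdown libraries were far shallower, so the levels of different experiments stand side by side without a test. In the libraries labelled Ftl1 KD, Dpysl3 and Dpysl5 overlapped each other, and every library had more of each than the highest library had of Stmn4 (70.7 ± 15.2 RPKM, n = 4) or Dpysl4 (26.5 ± 10.1). In the other 5 groups the means of Dpysl3 and Dpysl5 were below that of Stmn4.

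Each family had a leading gene. Stmn3 made up 74.4 ± 1.86% (n = 3) of the summed RPKM of the 4 stathmins in young, 75.8 ± 2.10% (n = 2) in aged and 79.0 ± 4.95% (n = 5) in overexpression control libraries, or 76.2 ± 3.44% without controls 3 and 5. It made up 72.4 ± 5.89% (n = 4) in the knockdown controls and 58.1 ± 3.40% (n = 4) in the libraries labelled Ftl1 KD, with ranges of 67.1% to 80.8% and 53.4% to 61.3%. Stmn1 took 16.2 ± 3.03% and 27.5 ± 3.25% of the stathmin sum in these groups, and Stmn2 6.39 ± 2.52% and 11.5 ± 1.13%.

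Among the CRMPs, Dpysl2 made up 67.6 ± 2.29% (n = 3) of the summed RPKM in young libraries and 49.7 ± 4.58% (n = 5) in overexpression controls, with Crmp1 the second at 19.7 ± 2.73% and 36.7 ± 2.51%. In the knockdown experiment Dpysl2 held 40.8 ± 15.7% in controls and 27.2 ± 2.82% in the libraries labelled Ftl1 KD, where Crmp1 led with 32.4 ± 1.97%. Dpysl3 held 4.24 ± 1.03% of the CRMP sum in young libraries and 18.8 ± 0.391% in the libraries labelled Ftl1 KD, and Dpysl5 2.31 ± 0.781% and 18.3 ± 2.42%. Of the relatives that are not members, Dpys, which encodes dihydropyrimidinase itself, was at 0 in all 8 knockdown libraries, and so was Stmnd1.

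In the knockdown experiment, which asked what lower Ftl1 does in aged neurons, 6 of the 7 members that could be tested were higher in the libraries labelled Ftl1 KD and none was lower. Dpysl5, Dpysl3, Crmp1, Stmn2, Stmn1 and Dpysl2 had ratios of the group means between 2.00 (Dpysl2) and 5.45 (Dpysl5), while Stmn3 had a ratio of 1.36 and did not pass the threshold. Dpysl4 and Stmn4 had mean normalized counts under 10 and were not tested. All 7 genes tested had a control mean above 10, the lowest being Dpysl5, so none passed the filter through the libraries labelled Ftl1 KD alone. Of all 1460 genes tested, 10.5% were called higher and 13.7% lower (154 and 200 genes), and since the genes were chosen with these values known, nothing is read from the difference.

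Dpysl5, the CRMP5 gene, acts against CRMP2 in neurite outgrowth. It had normalized counts of 17.9, 11.3, 18.7 and 1.67 in control libraries 1, 2, 3 and 5 and of 49.9, 61.3, 80.2 and 79.3 in libraries 1, 3, 4 and 5 labelled Ftl1 KD. Every library labelled Ftl1 KD was above every control, and control 5, with 4 reads, was the lowest. The log2 fold change on the scale of log2(normalized count + 1) was 2.68 ± 0.418 (SE; limma, adjusted p = 8.71e-05), the highest of the 1460 genes tested. Without control 5 it was 2.02 ± 0.286, and without controls 2 and 5, which are the deepest libraries, 1.80 ± 0.282, both past the threshold.

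Dpysl3 encodes CRMP4, which binds actin filaments as well as tubulin. Its normalized counts were 13.2, 13.7, 24.3 and 8.36 in the 4 controls, whereas the libraries labelled Ftl1 KD had 55.6, 58.6, 61.9 and 70.5, with no overlap. The log2 fold change was 2.06 ± 0.295 (limma, adjusted p = 3.03e-05), the sixth-highest of all genes tested.

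Crmp1 encodes a CRMP that relays semaphorin signals at dendrites and axons. It had 28.3, 21.8, 84.3 and 26.3 normalized counts in the 4 controls, whereas the libraries labelled Ftl1 KD had 107, 109, 115 and 122. Control 3 was far above the other controls and nearest to the libraries labelled Ftl1 KD, but the groups did not overlap. The log2 fold change was 1.69 ± 0.295 (limma, adjusted p = 0.000253) and 2.12 ± 0.221 without control 3.

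Dpysl2, whose product CRMP2 brings tubulin dimers to growing axons, had 35.9, 45.2, 22.5 and 19.7 normalized counts in the 4 controls, whereas the libraries labelled Ftl1 KD had 51.8, 57.7, 56.5 and 80.8. The groups did not overlap, and control 2 came closest to the libraries labelled Ftl1 KD. Its log2 fold change, 1.04 ± 0.276 (limma, adjusted p = 0.00751), was the lowest of the 6 that passed.

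Of the stathmins, Stmn2, a growth-associated protein of axons, had 45.3, 26.2, 31.8 and 18.8 normalized counts in the 4 controls, whereas the libraries labelled Ftl1 KD had 102.6, 97.4, 78.3 and 102.8. Stmn1, the soluble stathmin, had 31.1, 23.4, 26.2 and 25.5 against 68.1, 75.8, 72.9 and 97.0. In both genes the lowest library labelled Ftl1 KD was well above the highest control. The log2 fold changes were 1.67 ± 0.258 for Stmn2 and 1.52 ± 0.242 for Stmn1 (limma, adjusted p of 8.68e-05 and 9.47e-05).

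Stmn3 had 64.2, 92.8, 63.7 and 65.2 normalized counts in the 4 controls, whereas the libraries labelled Ftl1 KD had 98.8, 97.4, 98.4 and 95.5. All libraries labelled Ftl1 KD were above all controls, as for 11.8% of all genes tested, but control 2 was close to them. The log2 fold change of 0.46 ± 0.216 did not pass the threshold (limma, adjusted p = 0.115).

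Dpysl4, the CRMP3 gene, overlapped between the groups, with 9.44, 4.03, 13.1 and 4.60 normalized counts in the 4 controls, whereas the libraries labelled Ftl1 KD had 12.5, 7.22, 12.8 and 5.88. Stmn4 had 6.61, 4.84, 7.49 and 12.96 against 9.59, 9.02, 5.47 and 8.82. Without the filter their log2 fold changes were 0.33 ± 0.464 and 0.09 ± 0.469 (limma, adjusted p of 0.755 and 0.936). At 3 to 31 reads a library, no difference was detectable for either gene.

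**Figure D2:**
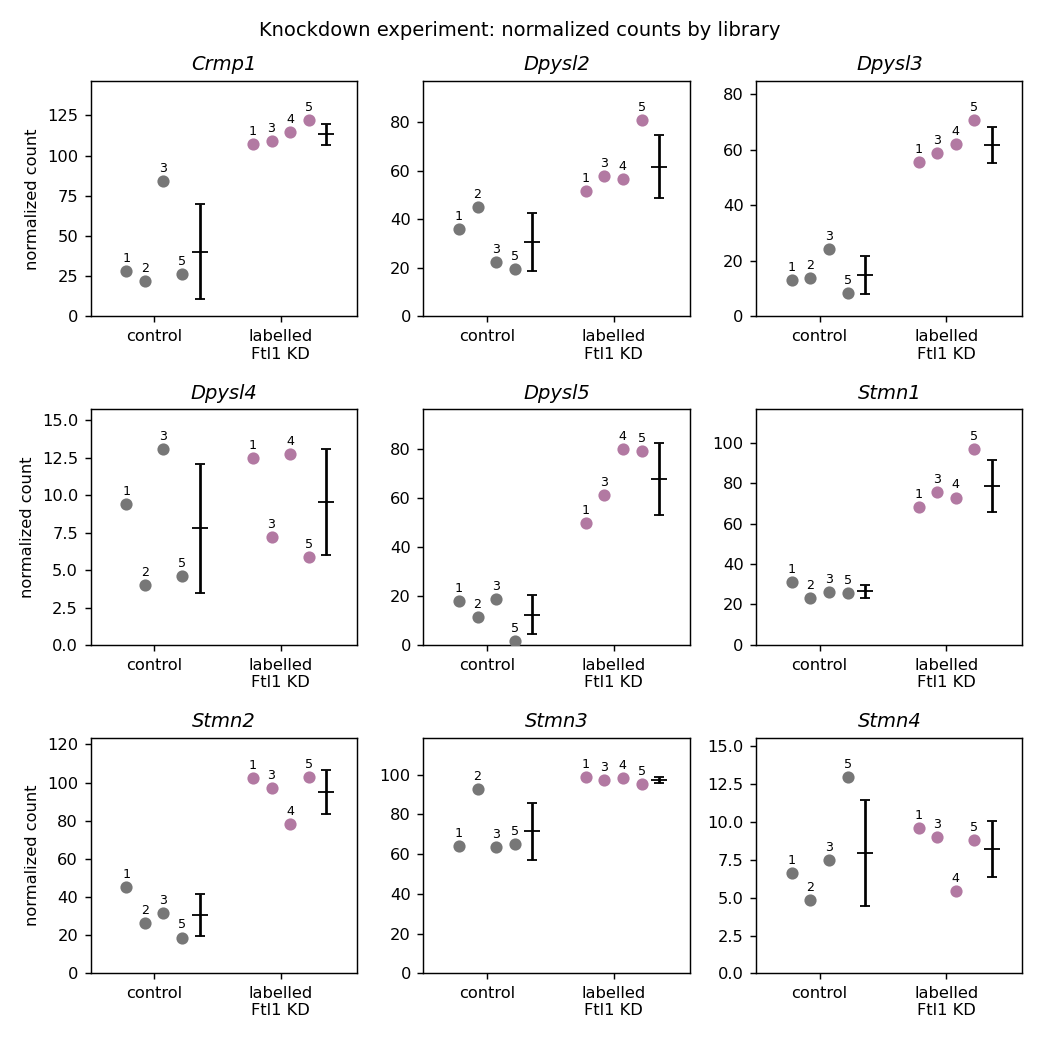
Normalized counts of the 9 genes in the 4 control libraries and the 4 libraries labelled Ftl1 KD, with 1 point per library numbered by replicate and the mean ± SD beside each group. The groups do not overlap for 7 genes, as for 11.8% of all 1460 genes tested with the libraries labelled Ftl1 KD higher, and overlap for Dpysl4 and Stmn4.

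Over all 9 genes, the untested Dpysl4 and Stmn4 included, the median log2 fold change was 1.52. Over all 1460 genes tested the median was -0.01 (0.10 after centring each library on its median, which shifted all values alike and called 197 genes higher and 161 lower). Each of the 6 genes stayed past the threshold and higher under every alternative that tested it, including edgeR, DESeq2 and the omission of each library in turn.

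Genes of the same pathway were counted next, in lists chosen with earlier results of these data known. A gene of a list is said to rise or fall where limma called it. Of all 1460 genes tested, 10.5% were called higher and 13.7% lower. Of 14 tubulins, 9 were tested in the knockdown experiment, and 5 rose and none fell, with a median log2 fold change of 1.13 beside -0.01 over all genes. Tuba1a, the main alpha-tubulin of developing neurons, rose from 201.8 ± 42.8 to 669 ± 39.7 normalized counts (SD, n = 4 and 4; log2 fold change 1.75 ± 0.194, limma, adjusted p = 1.01e-06). Tubb2b and Tubb5, beta-tubulins that are abundant in immature neurons, rose by 1.99 ± 0.267 and 1.497 ± 0.215 on the log2 scale, and Tubb3 and Tubb2a were the other two.

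Of 30 microtubule-associated and severing proteins, 10 were tested, 3 rose and none fell (median 0.18). The 3 were Mapre2, which encodes the plus-end protein EB2 (1.90 ± 0.364), Map1b, an early axonal protein (1.03 ± 0.232), and Mapt, which encodes tau (1.10 ± 0.280). Of 23 growth cone and actin genes, 14 were tested, 4 rose and none fell (median 0.47). Gap43, the growth-associated protein of axon tips, rose from 11.6 ± 8.19 to 42.4 ± 8.60 normalized counts (2.00 ± 0.373, limma, adjusted p = 0.000433). Marcksl1 and Actg1 rose by 2.00 ± 0.369 and 1.25 ± 0.213, and Actb was the other.

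The upstream genes did not move one way. Of 21 semaphorin receptors and CRMP kinases, 7 were tested (median -0.55). The adhesion molecule gene L1cam rose (1.38 ± 0.327), whereas the redox enzyme gene Mical2 and the semaphorin co-receptor gene Plxna4 fell by 1.72 and by 1.49 on the log2 scale (SE 0.321 and 0.487; limma, adjusted p of 0.000433 and 0.0264). Of 13 genes of CRMP cargo and partner proteins 5 were tested and none passed (median 0.04), the nearest being the guanine nucleotide exchange factor gene Trio at -1.19 ± 0.456 (limma, adjusted p = 0.0552). Kif5a was at 0.40 ± 0.403 and Klc1 at -0.19 ± 0.245.

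Of 21 stathmin kinases, phosphatases and palmitoyl transferases 8 were tested and none passed (median -0.22). The kinase gene Camk2b was at -0.55 ± 0.231 and the calcineurin genes Ppp3r1 and Ppp3ca at -1.13 ± 0.487 and -0.77 ± 0.376. Of 8 regulators of stathmin and CRMP transcripts only Celf4 was deep enough to be tested (0.71 ± 0.405, limma, adjusted p = 0.191), so that Tardbp, the TDP-43 gene, Rest and the Elavl genes have no result here. The calls above are those of limma. In the knockdown experiment DESeq2 called the same genes of these lists, whereas edgeR called Map1a and Trio lower and Pfn2 higher in addition. In the aging and overexpression experiments neither limma nor edgeR called a gene of any of these lists. DESeq2 called 1 there, Mical1 of the semaphorin list, which it placed lower in aged libraries.

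Markers of cell state differed between the same knockdown libraries. Of 15 newborn neuron markers only Nnat was tested, and it rose (1.43 ± 0.348, limma, adjusted p = 0.00412). Summed over the list, of which Dcx also stands among the microtubule-associated proteins, the controls had 17.1 to 30.0 normalized counts and the libraries labelled Ftl1 KD 49.2 to 61.7, and Eomes was at 0 in every one of the 8 libraries. Nnat alone went from 12.2 to 31.6 on average, and without it the other 14 genes summed to 9.68 to 16.99 and 12.8 to 26.8, so that the groups overlapped. Sox4 was at 0 to 0.807 in controls and at 0 in all libraries labelled Ftl1 KD. Cd24a was at 0 to 3.78 and 5.47 to 8.82, without overlap, and Dcx at 0 to 5.66 and 3.64 to 7.22. On average Bhlhe22, Calb2, Neurod1 and Sox4 were lower in the libraries labelled Ftl1 KD, and the other genes of the 14 apart from Eomes were higher. None of the 14 was tested. All 5 tested nuclear noncoding RNAs of 8 fell, with a median of -1.87, and their sum was 630.4 to 1264 in controls and 226 to 327 in the libraries labelled Ftl1 KD. Malat1, Snhg11 and Meg3, RNAs kept in the nucleus, fell from 378 ± 138, 295 ± 93.4 and 181 ± 73.1 to 101 ± 28.7, 82.8 ± 18.4 and 56.3 ± 7.60 normalized counts. The part of these differences in the values of the 9 genes was not tested, and in bulk nuclei a change in the number of cells of a type and a change in RNA per cell cannot be told apart.

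The labelled tissue was checked against cell type markers, first in the knockdown experiment. Rbfox3, which encodes the sorting antigen NeuN, had 15.1, 9.68, 3.74 and 14.6 normalized counts in the knockdown controls, and the libraries labelled Ftl1 KD had 3.84, 9.92, 9.11 and 2.94, with 2 to 35 reads a library. The 7 neuron markers summed to 142 to 206 normalized counts in knockdown controls and to 162 to 189 in the libraries labelled Ftl1 KD, with Syt1 (83.4 and 65.7 on average) and Snap25 (31.7 and 33.99) the highest. Of the 4 neuron markers tested, limma called Gad1 higher and Slc17a7 lower, whereas edgeR and DESeq2 called only Gad1. The 6 markers of dentate granule cells summed to 50.6 to 87.9 and 20.6 to 36.4, with C1ql2 falling by 1.49 on the log2 scale (SE 0.314), the 5 of CA1 to 54.3 to 92.4 and 35.5 to 66.1, with Fibcd1 falling by 1.47 (SE 0.341), and the 4 measured of CA3 to 12.5 to 20.6 and 2.94 to 10.8. The 8 of interneurons, with Gad1 and Gad2 of the neuron list among them, summed to 41.2 to 82.7 and 70.0 to 92.9. Of the 3 tested, Gad1 rose by 1.49 ± 0.360 and Sst was at -0.36 ± 0.335. The adjusted p (limma) was 0.0013 for C1ql2, 0.00276 for Fibcd1, 0.0038 for Gad1 and 0.457 for Sst.

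Markers of glia were present in these sorted nuclei and moved both ways. The 9 of oligodendrocytes summed to 39.7 to 97.2 in controls and 10.9 to 24.4 in the libraries labelled Ftl1 KD, with Ermn at 0 throughout, and the 7 of their precursors to 2.09 to 16.9 and 17.3 to 29.1, with C1ql1 and Neu4 at 0 throughout. The 9 of astrocytes summed to 27.6 to 59.5 and 53.2 to 79.3, the 10 of microglia to 8.49 to 18.96 and 1.47 to 12.5, and the 8 of endothelial cells to at most 0.403 and 2.94. Mbp and Cnp of oligodendrocytes fell (-1.87 ± 0.347 and -1.88 ± 0.696). Of the 2 astrocyte markers tested, Slc1a3 rose (2.05 ± 0.394), whereas Slc1a2 did not (0.05 ± 0.460). In the controls, the sum of oligodendrocyte markers was in the same range as those of granule cells, CA1 cells and interneurons. The part of these markers in the values of the 9 genes was not tested.

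Glial markers were also present in the other experiments. Mbp had 23101 ± 8280.1 normalized counts in controls (n = 5) and 27420 ± 6113 in the libraries labelled Ftl1 OE (n = 7), against 23015 ± 10714 and 19663 ± 6475 for Slc17a7, the highest neuron marker, and 12105 ± 3234 and 11264 ± 2496 for Syt1. Sums of the neuron markers were 44193 to 68422 and 42137 to 58766, those of oligodendrocytes 22969 to 48151 and 26645 to 44478, and those of astrocytes 7155 to 28164 and 9684 to 43386. Microglial markers summed to 3017 to 7164 in controls and 1679 to 3204 in the libraries labelled Ftl1 OE, with an overlap from 3017 to 3204. In the aging experiment the neuron markers summed to 27720 to 35521 in young and 33206 to 36836 in aged libraries and those of oligodendrocytes to 3116 to 6872 and 3173 to 4523. Of all marker genes DESeq2 called 2 in the overexpression experiment, Sst and C1qb, both higher in controls, and in aging Neu4, which was lower in aged libraries, whereas limma and edgeR called none in either experiment.

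In the overexpression experiment, which asked what more Ftl1 does in young neurons, none of the 9 genes was called at an adjusted p of 0.05, as were 0% of all 14099 genes tested (limma; 1023 genes, none of the 9 among them, had an unadjusted p under 0.05). Called by edgeR were 0 genes and by DESeq2 101, none of the 9 among them. The study, in its own comparisons, listed Stmn3 and Ftl1 among genes lower with Ftl1 overexpression and higher with Ftl1 knockdown and neuronal knockout. For none of the 9 were the groups without overlap, against 0.582% of all genes. The values with the widest separation were those of Stmn3 and Dpysl5.

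Stmn3 had 15192, 10687, 44098, 15944 and 31696 normalized counts in control libraries 1 to 5, and 9025 to 17739 (median 13808) in the 7 libraries labelled Ftl1 OE. Controls 3 and 5 were above all others, and the other 3 controls lay within the range of the libraries labelled Ftl1 OE. The log2 fold change was -0.67 ± 0.325 (limma, adjusted p = 0.676) and -0.09 ± 0.244 without controls 3 and 5. Since these were the highest libraries, leaving them out had to raise the value. Ftl1 itself, at -0.67 ± 0.336 and at -0.10 ± 0.214 without them, had its highest value in control 3 as well.

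Dpysl5 had 134.7, 161, 94.7, 271 and 149.6 normalized counts in the controls and 157 to 332 (median 245) in the libraries labelled Ftl1 OE. Controls 1, 3 and 5 were under every library labelled Ftl1 OE, control 2 was near the lowest of them and control 4 among the highest. The log2 fold change was 0.63 ± 0.356 (limma, adjusted p = 0.706), and 0.39 ± 0.351 without controls 3 and 5.

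Stmn1 had 4450, 3930, 14166, 4932 and 6597 normalized counts in the controls and 3622 to 6457 (median 4704) in the libraries labelled Ftl1 OE, so that control 3 was far above every other library. Its log2 fold change of -0.29 ± 0.276 became 0.16 without controls 3 and 5. Dpysl4 was likewise highest in control 3, with 2057 normalized counts, where the other controls had 838 to 1051 and the libraries labelled Ftl1 OE 766 to 1381 (-0.12 ± 0.243). The remaining genes overlapped broadly, with log2 fold changes of 0.23 ± 0.168 for Dpysl2, 0.00 for Crmp1, -0.22 ± 0.328 for Dpysl3, -0.20 ± 0.220 for Stmn2 and -0.19 ± 0.174 for Stmn4, beside a median of 0.10 over all genes. Without controls 3 and 5 they were 0.13 ± 0.174, 0.06 ± 0.238, -0.49 ± 0.314, -0.33 ± 0.203 and -0.11 ± 0.167 in the same order, and Dpysl4 was at 0.14 ± 0.219.

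**Figure D3:**
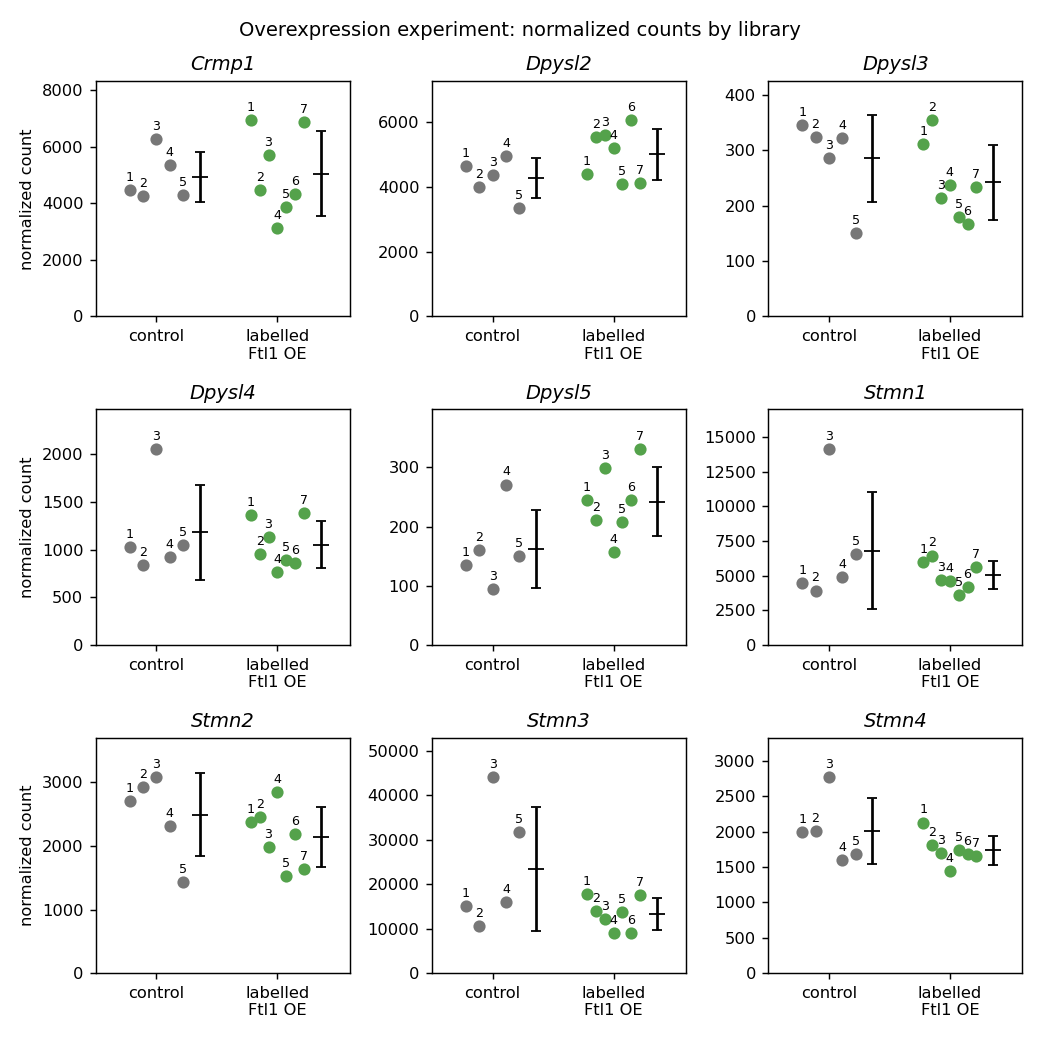
Normalized counts of the 9 genes in the 5 control libraries and the 7 libraries labelled Ftl1 OE, with 1 point per library numbered by replicate and the mean ± SD beside each group. The groups overlap for every gene, and control 3 is the highest control for Crmp1, Dpysl4 and the 4 stathmins.

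The 12 overexpression libraries also showed which members varied together between libraries of a group. After the group means were taken off, Pearson's r of log2(normalized count + 1) was above 0 for 23 of the 36 pairs, from -0.46 to 0.84 with a median of 0.14. Stmn3 varied with Stmn1 and with Dpysl4 (r = 0.84 for each, and 0.58 and 0.83 over the 10 libraries without controls 3 and 5), and Crmp1 with Dpysl4 (0.81 and 0.93). Stmn2 and Stmn3 deviated in opposite directions (-0.32 and -0.49), while Stmn2 deviated with Dpysl3 (0.70 and 0.47) and Dpysl2 (0.60 and 0.41). These are descriptions over libraries that differ in depth and share their normalization.

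Of all other genes tested, the one most like each member over the 12 libraries was Fam213b for Stmn3 (r = 0.99), Pex5 for Dpysl4 (0.98), Polr2g for Stmn1 (0.97), Abce1 for Stmn2 (0.96) and BC031361 for Dpysl2 (0.92). It was Arpc1a, which encodes a subunit of the actin-nucleating Arp2/3 complex, for Crmp1 (0.92), Krt12 for Stmn4 (0.91), Plcxd3 for Dpysl3 (0.89) and Klf16 for Dpysl5 (0.86). Each value is the highest among all genes tested, and a high value is therefore built into it. Without controls 3 and 5 the r of these 9 pairs ran from 0.80 (Dpysl3) to 0.98 (Stmn2).

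In the aging experiment none of the 9 genes was called, again beside 0% of all 13712 genes tested (limma; 1089 genes, none of the 9 among them, had an unadjusted p under 0.05, and edgeR called 0 and DESeq2 142 genes, none of the 9 among them). The groups were without overlap for 1 of the 9, Crmp1, against 24.7% of all genes. Crmp1 had 1527, 2216 and 2118 normalized counts in young and 2336 and 2265 in aged libraries. Both aged libraries were above the 3 young ones, with young 2 close to them, and the log2 fold change was 0.25 ± 0.275 (limma, adjusted p = 0.826) and 0.09 without young library 1.

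Stmn1 and Dpysl3 had the largest differences of the 9 genes. Stmn1 had 1018, 813 and 915 normalized counts in young libraries 1 to 3 and 954 and 1537 in aged libraries 2 and 3 (0.41 ± 0.303, and 0.07 without aged library 3 or 0.75 without aged library 2). Dpysl3 had 432, 382 and 341 in young and 409 and 173 in aged libraries (-0.53 ± 0.423, and 0.09 without aged library 3 or -1.15 without aged library 2). For both genes aged library 3 lay outside the young range and aged library 2 within it.

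The 2 aged libraries had 817 and 804 normalized counts of Stmn2 and the young ones 714.5, 1242 and 1126 (-0.30 ± 0.315, and -0.54 without young library 1 or -0.15 without young library 2). Stmn3 had 2576, 3907 and 3951 in young and 3744 and 4412 in aged libraries (0.25 ± 0.287, and 0.05 without young library 1 or 0.13 without aged library 3). Dpysl2, Dpysl4, Dpysl5 and Stmn4 had log2 fold changes between -0.10 and 0.02. The SEs of the 9 genes ran from 0.274 to 0.433, and none of the differences was detectable with 3 and 2 libraries.

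**Figure D4:**
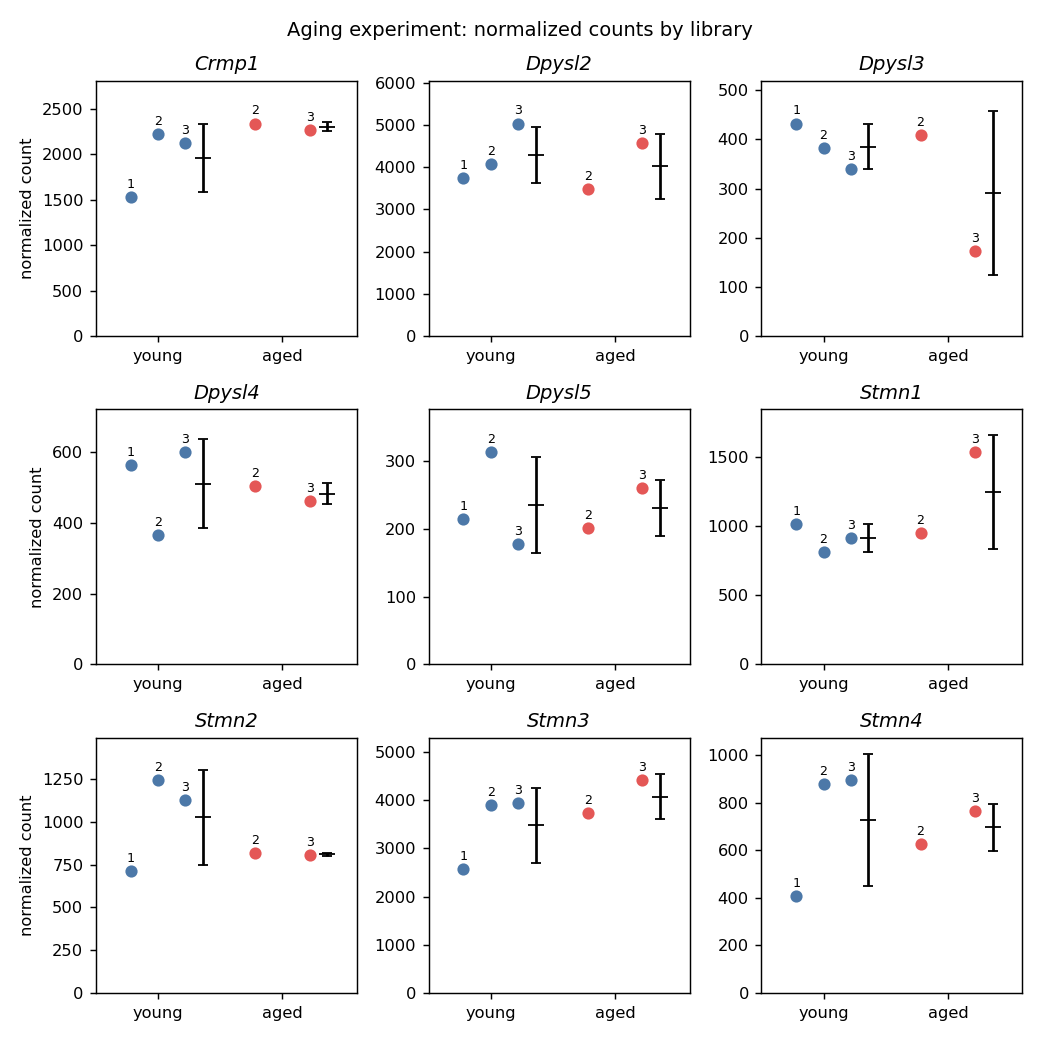
Normalized counts of the 9 genes in the 3 young and the 2 aged libraries, with 1 point per library numbered by replicate and the mean ± SD beside each group. Young and aged libraries overlap for 8 genes, and for Crmp1 both aged libraries are above the young ones.

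Set side by side, the 3 comparisons gave the members different values. Dpysl3 was at -0.53 in aging, -0.22 in the libraries labelled Ftl1 OE and 2.06 in those labelled Ftl1 KD, and Dpysl5 at 0.00, 0.63 and 2.68. Stmn2 was at -0.30, -0.20 and 1.67. Stmn3, the most abundant member, was at 0.25, -0.67 and 0.46, and it had the lowest value of the tested members in both virus experiments. Without controls 3 and 5 of the overexpression experiment, however, Dpysl3, Stmn2 and Stmn4 were lower there than Stmn3. The differences between the experiments were not tested, since each table was normalized on its own.

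**Figure D5:**
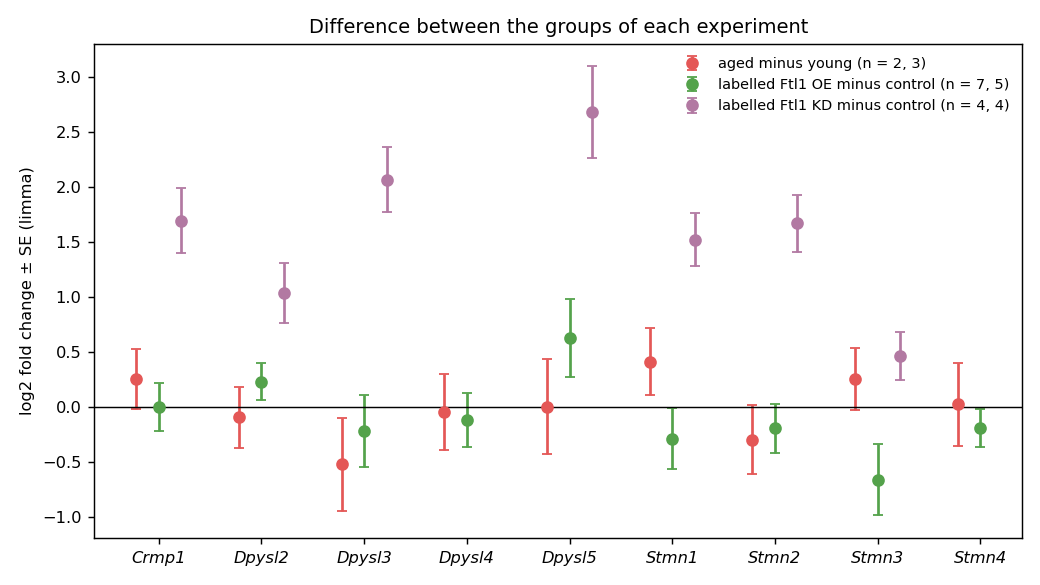
Log2 fold change with its SE from limma for the 9 genes in the aging, overexpression and knockdown experiments, with Dpysl4 and Stmn4 left out of the knockdown experiment as too low to test. Aging and overexpression values lie between -0.67 and 0.63, and 6 of the 7 knockdown values are above 1.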

How the data were processed

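RNA of NeuN-sorted hippocampal nuclei was measured in 25 libraries. The authors aligned reads with STAR to mm10, quantified genes with RSEM and normalized with DESeq2, each table separately; the labels describe strand-specific polyA libraries, the study's methods a Smart-seq2 protocol. The deposited values are a signal, namely read counts divided by size factors, and whole reads (tolerance 0.01) were recovered for 100% of values. The authors' own comparison columns (fold change and p-value) were not used. All 24411 genes of each table were filtered at a mean of 10 and tested with limma 3.58.1 (R 4.3.3, trend) on log2(normalized count + 1), adjusted by Benjamini-Hochberg over 13712 (aging), 14099 (overexpression) and 1460 (knockdown) genes. A gene was called at an adjusted p of 0.05, and for aging only with a log2 fold change of 0.5 or more in size. edgeR 4.0.16 and DESeq2 1.42.0 on the recovered reads were alternatives, and the models were tested on simulated data. Groups came from the labels. The study counts the aging libraries as mice; for both virus experiments the sources used here do not tie libraries to mice, so p-values there measure only the spread between libraries, which may be technical. Libraries of a group differed by more than counting noise. Members and lists were chosen with earlier results of these data known. Named were the 9 genes, Ftl1, the gene most like each member and the 2 highest markers of a cell type. Of each pathway list, up to 3 genes with the smallest adjusted p in the knockdown experiment were named. Tubb3, Tubb2a, Actb, Rbfox3, Sox4, Mical1, Neu4, Map1a, Pfn2, Gad2, untested list genes and genes at 0 were named after their values were seen. Plots used Python 3.11.15 and matplotlib 3.10.9.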

Additional observations from a re-analysis of the deposited data

Results flagged for a closer look

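Of 40 groups of 4 to 7 libraries examined for the 9 genes and Ftl1, 5 held a library far from the others by Dixon's criterion at the 95% level, which chance gives in about 1 of 20 groups. Control 3 of the overexpression experiment was the highest library for 3 of them: Stmn1 with 14166 normalized counts (next highest control 6597), Dpysl4 with 2057 (1051) and Ftl1 with 28310 (9953). In the knockdown experiment control 3 had 84.3 normalized counts of Crmp1 (next highest control 28.3), and control 2 had 92.8 of Stmn3 (65.2). What sets these libraries apart was not tested.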

How the results depend on the processing

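In the knockdown experiment the 6 members stayed higher and past the threshold, and Stmn3 above 0 and short of it, under every alternative that tested them; with a mean of at least 100 no member could be tested. The number of genes called there, 354, was 18 with a mean of at least 100 (29 genes tested) and 244 to 437 with 1 library left out. Without controls 2 and 5, an alternative chosen after seeing the data, it was 119. In that alternative 8 members were tested, and the median log2 fold change over all 9, tested or not, was 1.19. With the replicate number as a block 173 genes were called, with the same 6 members among them. Same-numbered libraries showed no shared deviation (r of -0.05 to -0.02 in the knockdown and -0.05 to 0.02 in the aging experiment). This check cannot exclude a pairing. The deviations of the 2 aged libraries from their mean mirror each other, and the knockdown libraries are few and shallow. DESeq2 called 142 genes in aging and 101 in overexpression, none of them a member, where limma called 0 (1089 and 1023 genes at an unadjusted p under 0.05) and edgeR 0, and it called Ftl1 in aging (log2 fold change 1.15).

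No member was called in aging or overexpression, and several changed sign. In aging these were Dpysl5 after median centring (0.0074), Stmn4 with edgeR (-0.069), DESeq2 (-0.060) and the replicate block (-0.35), and Dpysl4 with the block (0.040). With 1 library left out the aging values ran from -0.29 to 0.10 for Dpysl2, -1.15 to 0.095 for Dpysl3, -0.27 to 0.085 for Dpysl4, -0.18 to 0.23 for Dpysl5 and -0.35 to 0.21 for Stmn4, and the median member from -0.047 to 0.20. In overexpression these were Crmp1 with TMM (0.049), total reads without Rn45s (0.12), edgeR (0.070), DESeq2 (0.034) and without controls 3 and 5 (0.056), Dpysl4 with total reads (0.00053), library weights (0.044) and without controls 3 and 5 (0.14), and Stmn1 with library weights (0.025) and without controls 3 and 5 (0.16). With 1 library left out they ran from -0.090 to 0.10 for Crmp1, -0.22 to 0.10 for Dpysl4 and -0.45 to 0.016 for Stmn1, and 0 to 1 genes were called. The cause was not tested.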
